A study of Mus musculus with 6 samples.

Results

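The mitochondrial ribosomal protein genes were taken as the protein-coding genes of the mm10 RefSeq table whose symbols begin with Mrpl or Mrps and a digit. The rule found 78 genes of 21887 protein-coding genes: 49 named for the large subunit (Mrpl) and 29 for the small subunit (Mrps), spread over 17 chromosomes. Matching pseudogenes, 6 in number, were left out. Subunits are given by symbol here, although ribosome structures from human cells place the Mrps30 and Mrps18a proteins in the large subunit, and Mrps36 has been reported as a part of the oxoglutarate dehydrogenase complex.

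Mitochondria make a few membrane proteins of the respiratory chain on ribosomes of their own. The ribosomal RNAs are encoded in mitochondrial DNA, and every protein of these ribosomes is encoded in the nucleus, made in the cytosol and imported. The large subunit holds the site where peptide bonds form and the small subunit holds the messenger RNA and the decoding site. The genes are scattered housekeeping genes, and many have their start close to that of a neighbour on the opposite strand.

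The data are peak lists from chromatin immunoprecipitation sequencing (ChIP-seq) of mouse embryonic stem cells with an Rx:GFP knock-in, kept in 2i+LIF medium. All cells lacked endogenous Wdr5 and p53. One line (WT rescue) was rescued with wild-type WDR5 and the other (mutant rescue) with WDR5 carrying S91K and Y191F, and the labels do not say whether a line is 1 clone. Each line gave 1 library for WDR5, a scaffold subunit of the methyltransferase complexes that act on lysine 4 of histone H3, and 1 for trimethylation of that lysine (H3K4me3), a mark of promoters, so differences between the lines have no replicate to be checked against and no p-value is given.

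The WDR5 lists had 11095 rows (WT rescue) and 26888 rows (mutant rescue), and those of H3K4me3 had 71695 and 74305. Each row is a region with the authors' fold enrichment at its summit and a −log10 q, the authors' significance after correction for multiple testing. In the WDR5 lists 10.8% and 4.83% of rows reached a −log10 q of 2, and in the H3K4me3 lists 94.0% and 90.7%, so most WDR5 rows are weak. Of 8 embryonic stem cell marker genes 7 had H3K4me3 at a gene end in each line, and Esrrb had none. H3K4me3 was also listed at all 5 fibroblast, 4 neuroectoderm, 3 endoderm and 3 mesoderm markers in the WT rescue and at 3, 3, 2 and 3 of them in the mutant rescue. The mark therefore did not separate these cell types, and a part of other cells in the results was not tested.

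Promoter sequences are shown for 6 members, from RefSeq on GRCm38.p6 (mm10 coordinates); each runs 5′ to 3′ on the strand of the gene, from 250 bases before the annotated start to 50 bases after it. Capitals mark matches, on either strand, to 6 motifs: TGCGCA (core of the NRF1 motif), CCGGAAG (ETS factors), AAGATGG (core of the YY1 motif), CACGTG (the E-box of MYC and related factors), CCAAT (the motif of NFY) and TATAAA (the TATA box). A match on the opposite strand appears as its reverse complement. Mrps11 (chr7:78782881-78783180, plus strand) is shown for a promoter that serves another member, Mrpl46, whose start lies 42 bases upstream on the opposite strand. Mrpl36 (chr13:73330759-73331058, plus strand) and Mrpl21 (chr19:3282792-3283091, plus strand) had WDR5 at the start in both lines. Mrpl1 (chr5:96209865-96210164, plus strand) had the start region with the highest −log10 q for WDR5. Mrpl3 (chr9:105053018-105053317, plus strand) and Mrpl44 (chr1:79775768-79776067, plus strand) had no WDR5 region at an end and the highest H3K4me3 folds among members with an annotated start.
Mrps11: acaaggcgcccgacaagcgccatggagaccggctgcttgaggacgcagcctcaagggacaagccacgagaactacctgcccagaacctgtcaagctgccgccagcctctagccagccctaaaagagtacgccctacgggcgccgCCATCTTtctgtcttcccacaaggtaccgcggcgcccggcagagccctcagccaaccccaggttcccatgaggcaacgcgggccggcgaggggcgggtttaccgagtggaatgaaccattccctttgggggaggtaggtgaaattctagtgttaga
Mrpl36: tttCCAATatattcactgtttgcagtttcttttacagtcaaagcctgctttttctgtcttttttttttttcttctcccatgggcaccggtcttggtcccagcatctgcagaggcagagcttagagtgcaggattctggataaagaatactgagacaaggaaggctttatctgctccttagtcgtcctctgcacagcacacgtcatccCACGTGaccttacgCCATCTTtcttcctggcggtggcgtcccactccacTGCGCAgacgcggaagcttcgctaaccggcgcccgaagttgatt
Mrpl21: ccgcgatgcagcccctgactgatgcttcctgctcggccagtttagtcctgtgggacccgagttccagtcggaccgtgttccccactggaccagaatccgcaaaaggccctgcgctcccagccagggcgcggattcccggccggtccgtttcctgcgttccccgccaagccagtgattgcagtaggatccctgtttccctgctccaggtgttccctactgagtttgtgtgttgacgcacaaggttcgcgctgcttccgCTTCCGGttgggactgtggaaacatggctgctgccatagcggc
Mrpl1: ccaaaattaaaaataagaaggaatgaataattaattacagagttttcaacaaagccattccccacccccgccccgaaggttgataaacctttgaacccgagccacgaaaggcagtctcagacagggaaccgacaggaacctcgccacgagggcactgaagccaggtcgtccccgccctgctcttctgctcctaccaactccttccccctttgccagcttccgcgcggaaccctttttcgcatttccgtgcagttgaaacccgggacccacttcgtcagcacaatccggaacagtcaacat
Mrpl3: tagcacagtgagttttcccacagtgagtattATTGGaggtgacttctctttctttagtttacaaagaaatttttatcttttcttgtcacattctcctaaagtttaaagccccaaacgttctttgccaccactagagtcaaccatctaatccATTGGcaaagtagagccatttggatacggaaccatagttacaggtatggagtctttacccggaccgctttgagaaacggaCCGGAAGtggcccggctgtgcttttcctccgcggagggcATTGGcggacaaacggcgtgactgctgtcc
Mrpl44: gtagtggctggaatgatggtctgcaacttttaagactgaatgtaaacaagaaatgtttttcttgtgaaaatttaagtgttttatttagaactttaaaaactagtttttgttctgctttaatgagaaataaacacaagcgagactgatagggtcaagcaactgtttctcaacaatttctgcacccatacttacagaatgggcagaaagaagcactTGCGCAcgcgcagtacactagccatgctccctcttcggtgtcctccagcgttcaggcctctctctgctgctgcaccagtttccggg

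H3K4me3 lay at nearly every mitochondrial ribosomal protein gene in both lines. A region within 1 kb of a gene end was listed for 75 of 78 members in the WT rescue (96.2%, exact 95% binomial interval 89.2 to 99.2%) and for 76 of 78 in the mutant rescue (97.4%, 91.0 to 99.7%), against a background of 68.4% and 67.6% of all protein-coding genes. In both lines it was listed for 75 members, against 66.6% of all genes. Around the annotated start, which the RefSeq promoter table gives for 69 members, all 69 had a region in each line, against 68.6% and 67.9% of the 17492 genes with a start (67.2% in both lines). All 29 small subunit members and 46 of 49 large subunit members in the WT rescue (47 in the mutant rescue) had a region at an end. These intervals cover counting error only.

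The exceptions were members of the large subunit whose region lay just beyond the window. Mrpl24 had a region 1066 bp from its nearest end in the WT rescue, at chr3:87919197-87920601 with a fold of 11.7, and in the mutant rescue the region, at chr3:87919119-87920554 with a fold of 11.6, reached the window. Mrpl4 had its region 1079 bp from an end in the WT rescue (fold 10.9) and 1069 bp in the mutant rescue (fold 11.0). The bacterial counterpart of Mrpl22 lines the tunnel through which the new peptide leaves. Mrpl22 had a region over its annotated start, 1621 bp inside the gene, with folds of 6.31 and 5.74. Another region lay outside the gene, 1240 bp from its end, with folds of 9.97 and 11.7. Each of these genes thus had a region close to the window or at its start.

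For 6 members the annotated start lay more than 1 kb inside the gene ends: Mrps2, Mrpl24, Mrpl22, Mrps23, Mrpl36 and Mrpl18. At Mrps2 and Mrps23 the regions at a gene end did not lie at the annotated start. Mrps2, the homologue of a bacterial protein that joins the small subunit late, had folds of only 2.96 and 2.30 at its end, in regions of 305 and 184 bp, and of 10.6 and 11.0 at its start (position 28468066 of chromosome 2). Mrps23 had 9.73 and 6.50 at the end that lies beside Cuedc1, and 10.4 and 10.9 at its start. At Mrpl18 and Mrpl36 the highest-fold region at an end lay at the other end of the gene, beside Pnldc1 and Ndufs6, and a further region that reached an end covered the start.

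The fold at the members was spread widely around the middle of the list. The highest fold at an end of a member had a median of 11.4 in the WT rescue (range 2.96 to 18.9, SD over genes 3.32, 75 genes) and 11.9 in the mutant rescue (range 2.30 to 19.1, SD 3.37, 76 genes), beside 10.2 and 10.3 over all genes with a region. In the WT rescue 44 of 75 members (58.7%) lay above the median of all genes, and in the mutant rescue 53 of 76 (69.7%). The large subunit had medians of 10.7 and 11.6 and the small subunit 12.4 and 12.7; this difference was not tested. The median width was 1520 and 1424.5 bp, beside 1483 and 1431 bp for all genes. The 84 cytosolic ribosomal protein genes had regions of lower fold, 5.62 and 8.50, and of greater width, 2431 and 2031.5 bp.

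Values are given here for the WT rescue list first, which sets the order, and then for the mutant rescue list, where the order differs in part. Among the large subunit genes the highest folds in the WT rescue were those of Mrpl3, a protein near the peptide bond site (18.9 and 19.1), Mrpl44, which has a ribonuclease III-like fold (17.7 and 18.5), Mrpl19 (17.2 and 17.9) and Mrpl23, whose bacterial homologue sits at the exit of the peptide tunnel (16.1 and 13.4). Mrps28 was the highest of the small subunit in that list, with 15.9 and 16.9. In both lists these 5 folds lay above the median of all genes, and in the mutant rescue Mrpl10 (18.5) stood above Mrpl19, and Mrpl9 (15.4), among others, above Mrpl23. The lowest folds in the WT rescue beside that of Mrps2 were at Mrpl49 (4.24 and 5.73), Mrpl34 (4.62 and 4.56), Mrpl40 (5.87 and 7.02) and Mrps34 (6.11 and 6.22). In the mutant rescue Mrps16 (6.14) stood below Mrps34, and Mrps23 (6.50) and Mrpl51 (6.97) below Mrpl40. This order follows the highest fold at either end. Mrps18b, with 11.5 and 11.9, had its highest-fold region at the other end of the gene, beside Atat1. Regions within 1 kb of its start had folds of 4.04 and 3.79 in the WT rescue and 4.41 and 4.94 in the mutant rescue. Taking the highest-fold region of each member, the widest in the WT rescue were those of Mrps34 (2788 bp), Mrpl40 (2642 bp) and Mrpl51 (2303 bp, fold 7.21). The region over the start of Mrpl18, which is not its highest in fold, was 2627 bp wide. Mrpl34, of low fold, had a region of 749 bp.

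**Figure D1:**
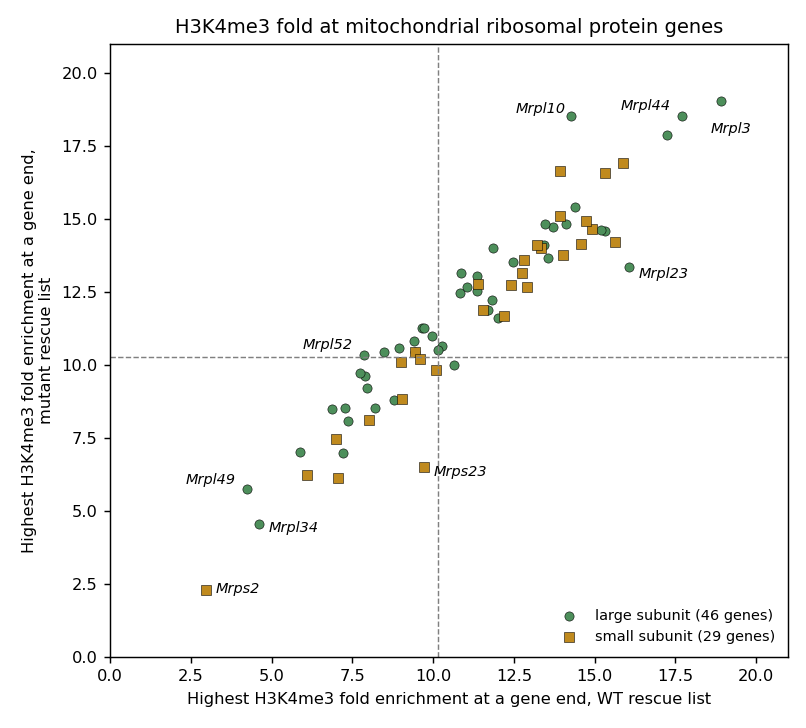
Highest H3K4me3 fold enrichment at a gene end in the mutant rescue list (vertical axis) against the WT rescue list (horizontal axis) for the 75 members with a region in both, 46 of the large subunit (circles) and 29 of the small subunit (squares); dashed lines are the medians over all protein-coding genes with a region, 10.2 and 10.3. Members run from Mrps2 at 2.96 and 2.30 to Mrpl3 at 18.9 and 19.1, and Mrps23 lies below the other members of like fold. The Mrps2 and Mrps23 values are from regions at a gene end that did not lie at the annotated start.

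The order of the members was close between the lines. The highest-fold regions of the 75 members overlapped in all 75, and the ranks by fold had a Spearman rho of 0.948 across genes, beside 0.894 for all genes with a region in both lists; genes are not independent replicates and the control library of each list is not stated. As a percentile among all genes in the same list, 57 members stood higher in the mutant rescue list and 18 in the WT rescue list, and 22 moved by more than 10 points. The large subunit gave 39 and 7, with 19 beyond 10 points, and the small subunit 18 and 11, with 3. These counts were not made over all genes, so they have no background here. The ratio of the mutant rescue percentile to that of the WT rescue was lowest at Mrps2 (1.70 in the WT rescue list, 0.622 in the mutant rescue list), Mrps23 (46.1 and 17.1) and Mrps16 (21.9 and 15.2). It was highest at Mrpl49 (6.01 and 13.1), Mrpl52 (28.1 and 50.6) and Mrpl50 (27.3 and 44.3). The Mrps2 and Mrps23 percentiles come from regions at a gene end that did not lie at the annotated start. At their starts the WT rescue and mutant rescue folds were 10.6 and 11.0 for Mrps2 and 10.4 and 10.9 for Mrps23. Mrpl10, part of the stalk that binds translation factors and named after its values were known, had folds of 14.3 (WT rescue) and 18.5 (mutant rescue). The region was narrower in the mutant rescue at 64 of 75 members (85.3%), with a median width ratio of 0.928, beside 73.2% and 0.954 over all genes. A percentile or width in lists of different depth, which is unknown, does not show a change in the cells.

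The region reached further into the gene than upstream of it at 46 of the 67 members whose start it covered in the WT rescue (68.7%) and at 51 of 68 in the mutant rescue (75%), beside 81.8% and 81.4% of all genes. It covered the annotated start of 67 (WT rescue) and 68 (mutant rescue) of the 69 members, and at the others, Mrpl45 (8 bp) and Mrps18b (9 bp) in the WT rescue and Mrpl20 (41 bp) in the mutant rescue, it began next to it. It extended a median of 572 and 502 bp upstream and 902 and 875 bp downstream, and the summit lay 172 and 174 bp downstream. All genes gave 487 and 464 bp, 975 and 936 bp, and 193 and 191 bp. The summit was downstream of the start at 56 of 67 members (83.6%) and 56 of 68 (82.4%), beside 84.9% and 85.1% of all genes. At the cytosolic ribosomal protein genes the region reached a median of 2152 and 1584 bp into the gene. These medians are over the 41 (WT rescue) and 59 (mutant rescue) of 64 genes whose start it covered, so the gene sets differ.

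**Figure D2:**
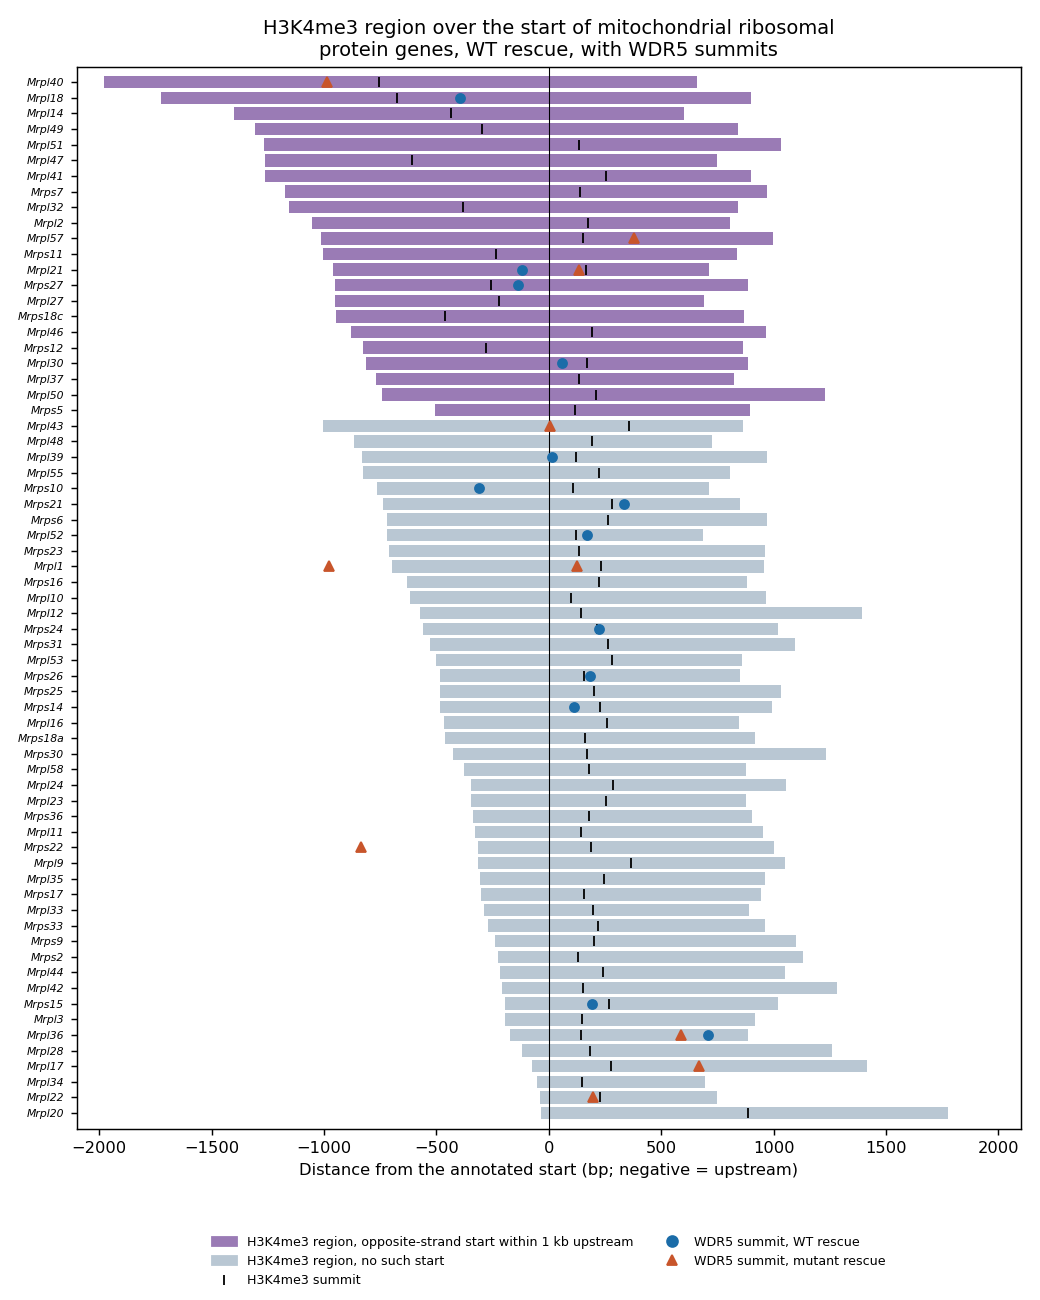
H3K4me3 region that covers the annotated start of each of 67 members in the WT rescue, as bars on a scale of distance from the start in bp (negative is upstream), with its summit (tick) and the summits of WDR5 regions within 1 kb of the start in the WT rescue (circles) and the mutant rescue (triangles). Bars of members with an opposite-strand start within 1 kb upstream (purple) reach further upstream, a median of 1009.5 bp, than the others (grey), a median of 376 bp.

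Shared promoters were frequent. An opposite-strand start of another protein-coding gene lay within 1 kb upstream of 23 of 69 members (33.3%), beside 1315 of 17492 genes (7.52%). Mrpl46 and Mrps11 are each other's partner, with starts 42 bp apart, and share 1 region, with folds of 9.44 and 10.5 and widths of 1845 and 1818 bp; the sequence of this promoter is the first of those shown. Several partners also act in mitochondria or in protein synthesis, and how often this holds over all genes was not counted. Sars2, the mitochondrial seryl-tRNA synthetase, starts 147 bp from Mrps12, whose bacterial homologue sits at the decoding site, and both genes carry the region of fold 9.04 and 8.85. Ptcd2, a protein of mitochondrial RNA processing, starts 108 bp from Mrps27, and Ndufb5, a subunit of respiratory complex I, 308 bp from Mrpl47. Fau, which encodes a protein of the cytosolic ribosome, starts 192 bp from Mrpl49. Other partners were Hira (a histone chaperone, beside Mrpl40), Tcp1 (a chaperonin subunit, beside Mrpl18), Psma2 (a proteasome subunit, beside Mrpl32), Eme1 (beside Mrpl27), Ighmbp2 (32 bp from Mrpl21), Mitd1 (66 bp from Mrpl30) and Ska3 (76 bp from Mrpl57). The remaining partners were Tmem63b, Klc4, Cyb5rl, Pnpla7, Zfp189, Ncapd2, Ppp1r10, Helq, Zfp661 and Gga3.

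The members with such a partner carried a wider region of lower fold. In the WT rescue the region over the start had a median width of 1915.5 bp and a fold of 8.34 at 22 members with a partner and of 1381 bp and 12.8 at 45 members without. In the mutant rescue the medians were 1805 bp and 8.85 (23 members) against 1287 bp and 13.2 (45 members). The width lay between 1403 and 2642 bp with a partner and between 749 and 1966 bp without in the WT rescue, so the groups overlapped. All protein-coding genes showed the same order, with 1899 bp and 8.73 against 1489 bp and 10.7 in the WT rescue. The pattern is thus shared with other genes that have a partner.

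WDR5 regions were few and weak at the mitochondrial ribosomal protein genes, much as they were over all protein-coding genes. They lay within 1 kb of an end of 16 members in the WT rescue (20.5%, 12.2 to 31.2%) and of 11 in the mutant rescue (14.1%, 7.26 to 23.8%), against a background of 16.3% and 10.7%; 3 members had one in both lines, against 4.33% of all genes. At the annotated start the counts were 13 and 9 of 69, with 2 in both lines, against 16.5%, 9.43% and 4.32%. The members' shares are near the background in both lines. Their highest folds at an end had medians of 2.61 (WT rescue) and 2.70 (mutant rescue), beside 2.73 and 2.55 over all genes with a region. Large subunit members numbered 8 and 10 of 49 and small subunit members 8 and 1 of 29; with 1 library per line these differences were not tested. A −log10 q of 2 was reached at an end of 1 member in the WT rescue list and of 2 in that of the mutant rescue, none in both, against 2.35% and 1.72% of all genes, and at the annotated start of none and of 1, against 2.43% and 1.81%. Of the cytosolic ribosomal protein genes 62 and 56 of 84 had a WDR5 region, 52 of them in both lines, with median folds of 9.70 and 10.3, and 46 in each line reached a −log10 q of 2.

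**Figure D3:**
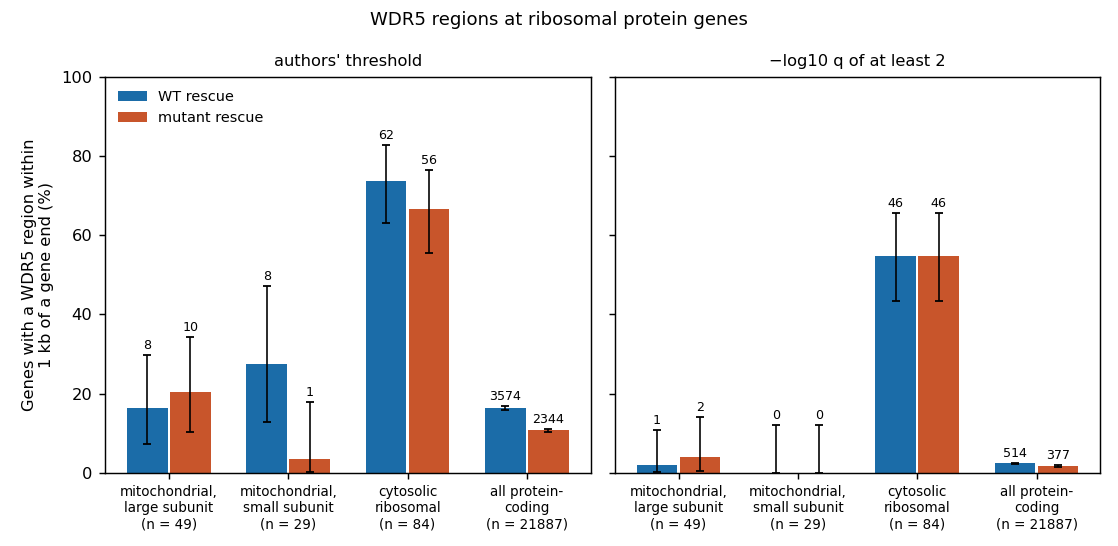
Percent of genes with a WDR5 region within 1 kb of a gene end in the WT rescue (blue) and the mutant rescue (orange), for the 49 large subunit and 29 small subunit members, 84 cytosolic ribosomal protein genes and 21887 protein-coding genes, at the authors' threshold (left) and from a −log10 q of 2 (right); error bars are exact 95% binomial intervals and numbers above bars are counts of genes. The members stand near all genes, with 8 and 10 large subunit and 8 and 1 small subunit genes on the left, while 62 and 56 cytosolic genes have a region.

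The 3 members with a WDR5 region at an end in both lines were Mrpl21, Mrpl27 and Mrpl36, all large subunit proteins with bacterial homologues. Only at Mrpl36, whose small bacterial homologue binds zinc, did the regions of the lines overlap. It had chr13:73331542-73332121 in the WT rescue, with a fold of 2.86 and a −log10 q of 0.449, and chr13:73331466-73331826 in the mutant rescue, with 2.97 and 1.57. Both lie downstream of the start whose sequence is shown, with summits 707 and 590 bp into the gene. At Mrpl21 the WT rescue region, chr19:3282783-3282933, lay upstream of the start (fold 2.31, −log10 q 0), and that of the mutant rescue, chr19:3283031-3283197, covered the start (2.70 and 0.318). Its start is 32 bp from that of Ighmbp2, so the region cannot be given to either gene.

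The strongest member in the WT rescue was Mrpl27, whose bacterial homologue reaches the peptide bond site. Its region, chr11:94662621-94662903, was 283 bp wide with a fold of 6.25 and a −log10 q of 13.5. It lay at the downstream end of the gene, beside Xylt2, inside an H3K4me3 region of 509 bp, and 8965 bp from the start of Mrpl27. The mutant rescue had another region near that end, chr11:94660738-94660943, with a fold of 2.20 and a −log10 q of 0. WDR5 was therefore not listed at the promoter of Mrpl27 in either line.

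The strongest member in the mutant rescue was Mrpl58, a peptidyl-tRNA hydrolase that frees stalled mitochondrial ribosomes. Its region, chr11:115412672-115413904, was 1233 bp wide with a fold of 9.82 and a −log10 q of 31.3. It lay beyond the downstream end of the gene and covered the transfer RNA genes n-TRcct5, n-TRcct3 and n-TRtcg4, which begin 307, 630 and 1105 bp past that end. No WDR5 row of the WT rescue lay there. H3K4me3 covered the same place in both lines, with 1990 bp and a fold of 9.13 in the WT rescue and 1792 bp and 8.96 in the mutant rescue, apart from the region at the start of Mrpl58 (15.2 and 14.6). Mrpl58 was the only member with transfer RNA genes within 1 kb of an end, and they cannot be told apart from the gene's own end in this count.

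**Figure D4:**
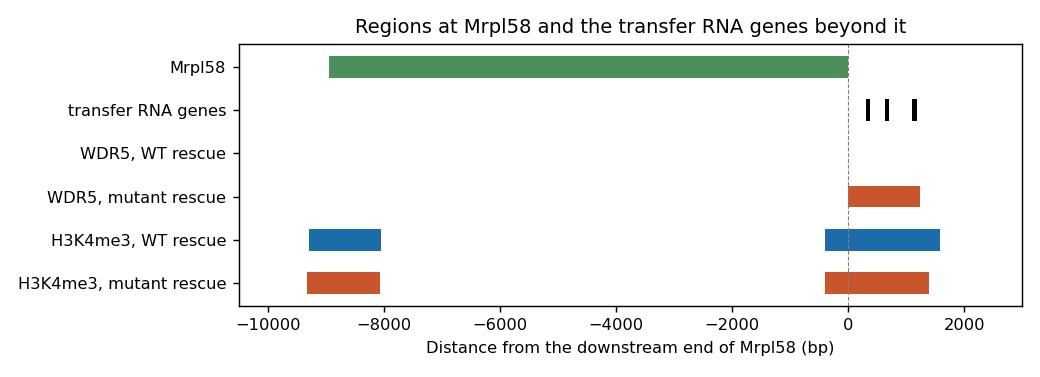
Position of Mrpl58, of the transfer RNA genes and of the listed regions on a scale of distance from the downstream end of Mrpl58 in bp, with regions of the WT rescue in blue and of the mutant rescue in orange. The WDR5 region of the mutant rescue, 1233 bp wide, covers the 3 transfer RNA genes, the WDR5 row of the WT rescue is empty, and H3K4me3 is listed there and at the start of Mrpl58 in both lines.

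Mrpl1, a protein of the stalk beside which spent transfer RNA leaves, was the only member with a WDR5 region at the start and a −log10 q of at least 2. In the mutant rescue chr5:96209737-96210487 was 751 bp wide with a fold of 3.28 and a −log10 q of 2.08, and its summit lay 127 bp downstream of the start. A second region, chr5:96208855-96209187, had a fold of 3.28 and a −log10 q of 1.12. The WT rescue list had none at Mrpl1, and its H3K4me3 folds were 12.0 and 11.6.

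The other members with WDR5 at an end in the WT rescue alone were Mrpl22, Mrpl30, Mrpl39, Mrpl52 and Mrpl54 of the large subunit and Mrps10, Mrps14, Mrps15, Mrps21, Mrps24, Mrps26, Mrps27 and Mrps34 of the small subunit. Their folds ran from 1.92 at Mrps34 and Mrps21 to 3.13 at Mrpl54, beside Apba3, which had the highest −log10 q, 1.03. Mrps15 had 2.89 with a −log10 q of 0.790, and Mrpl30, beside Mitd1, 3.02 with 0.542. In the mutant rescue alone they were Mrpl17 (2.81, 0.602), Mrpl40 beside Hira (2.34, 0.252), Mrpl43 beside Twnk, the mitochondrial DNA helicase (2.22, 0.0171), Mrpl50 (2.28, 0), Mrpl57 beside Ska3 (1.96, 0) and Mrps22 (2.70, 0.231), each with its fold and −log10 q in brackets. None of these regions reached a −log10 q of 2, and Mrpl54 alone among them had a −log10 p above 5 (5.02).

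Outside the gene-end windows the WT rescue had 3 WDR5 regions inside 3 members (3.85%) and the mutant rescue 8 inside 8 (10.3%), beside 13.5% and 23.2% of all protein-coding genes, with −log10 q of at most 1.73 and 0.681. These shares were not adjusted for gene length, and genes too short to extend beyond the windows count as having no region inside. The region of highest −log10 q, chr17:12916430-12916696, lay near the start of Mrpl18, which lies inside the gene's ends. It had a fold of 3.02 and a −log10 q of 1.73. Its summit lay 396 bp upstream of that start, within an H3K4me3 region that also covers the start of Tcp1. The start of Tcp1 is 238 bp upstream of that of Mrpl18, so the WDR5 region cannot be given to either gene. Mrpl22, whose start also lies inside its ends, had a region at its start in the mutant rescue, with a fold of 2.26 and a −log10 q of 0.0171.

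**Figure D5:**
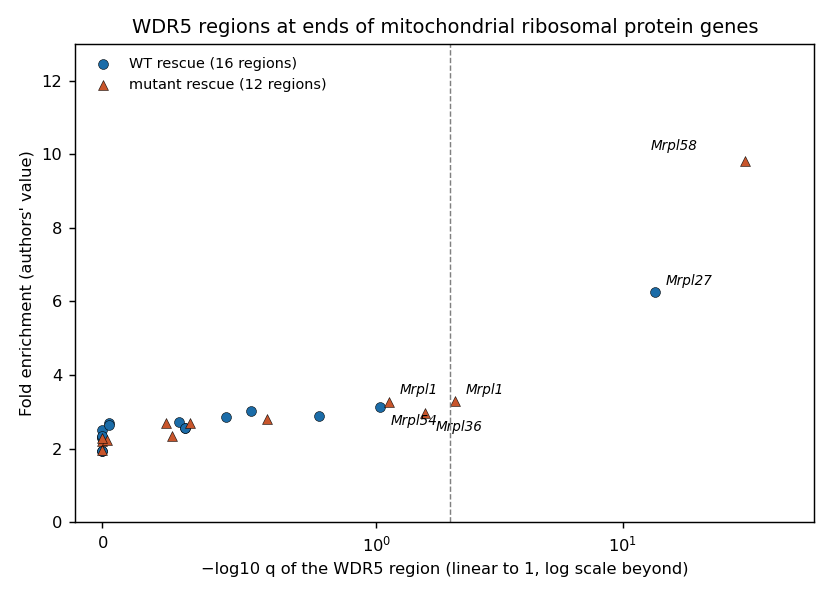
Fold enrichment (vertical axis, authors' values) against −log10 q (horizontal axis, linear to 1 and logarithmic beyond) of the 16 WDR5 regions of the WT rescue (circles) and 12 of the mutant rescue (triangles) within 1 kb of an end of a member; the dashed line marks a −log10 q of 2. All lie below a fold of 4 except Mrpl27 in the WT rescue (6.25) and Mrpl58 in the mutant rescue (9.82), both at downstream ends.

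Most of these WDR5 regions lay on H3K4me3. At the ends this held for 14 of 16 regions in the WT rescue and 8 of 12 in the mutant rescue, and 14 and 8 regions had a −log10 q under 1. Around the annotated starts 13 of 13 and 8 of 10 regions overlapped H3K4me3, beside 95.8% and 86.4% over all genes. Their summits had a median position of 113 and 130 bp downstream of the start, beside 143 and 92 bp over all genes, and lay between 396 bp upstream and 707 bp downstream in the WT rescue and between 987 bp upstream and 668 bp downstream in the mutant rescue. The 24 members with WDR5 at an end in either line had median H3K4me3 folds of 10.3 and 11.3, and the 54 without had 11.6 and 12.2. WDR5 at the start was listed for 4 and 3 of the 23 members with an upstream partner and for 9 and 6 of the 46 without, whereas over all genes the shares were 31.0% and 17.03% with a partner and 15.3% and 8.81% without. None of these differences was tested.

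The members' promoters held the motifs of known regulators of nuclear genes for mitochondria in many cases. TGCGCA was found in 21 of 69 promoters (30.4%), beside 10.1% of all 17492 promoters and 14.0% of those with H3K4me3 at the start in the WT rescue. CCGGAAG was found in 24 (34.8%, beside 11.9% and 16.6%) and AAGATGG in 13 (18.8%, beside 6.35% and 6.65%). At least 1 of these 3 motifs stood in 43 promoters (62.3%, beside 24.9% and 32.3%) and at least 2 in 14 (20.3%, beside 3.30% and 4.73%). CACGTG was in 5 promoters (7.25%, beside 7.91% and 10.1%), CCAAT in 27 (39.1%, beside 39.2% and 38.9%) and TATAAA in 4 (5.80%, beside 13.3% and 7.24%), and 12 promoters held none of the 6 (17.4%, beside 35.3% and 33.5%). The median GC content was 58.3%, above the 56.3% of all promoters and below the 61.0% of those with H3K4me3. The median number of CpG dinucleotides was 21, beside 13 and 20. Among the 64 promoters of cytosolic ribosomal protein genes 39.1% held CCGGAAG, 15.6% AAGATGG and 18.8% TGCGCA. For these 3 motifs, shares above those of all promoters were thus not particular to the members. A match is a description of letters and no evidence of a bound factor.

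The printed promoters show this range. Mrpl36 held 4 of the motifs, with the TGCGCA match 6 bp and the AAGATGG match −29 bp from the start, Mrpl21 a CCGGAAG match at 7 bp, Mrpl44 a TGCGCA match at −36 bp and Mrpl3 a CCGGAAG match at −19 bp with CCAAT matches around it. Mrps11 held an AAGATGG match at −106 bp, and none of the motifs was found at Mrpl1. CCGGAAG stood in 11 of the 20 promoters with WDR5 at the start in either line and in 13 of the 49 without (55.0% and 26.5%). TGCGCA stood in 5 of the 20 and 16 of the 49 (32.7%), AAGATGG in 4 and 9 (18.4%), and CCAAT in 6 and 21 (42.9%), with the share of the promoters without WDR5 in brackets. For CCGGAAG over all genes with H3K4me3 at the start the shares were 19.5% with WDR5 and 15.3% without. For TGCGCA they were 16.2% and 13.1%, the reverse of the order among the members, and for AAGATGG 7.88% and 6.12%. These differences were not tested. Matches to CCGGAAG had a median position of −16.5 bp, those to TGCGCA of −62 bp and those to AAGATGG of 14 bp from the start.

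Among other genes of the pathway H3K4me3 lay at an end of all 5 mitochondrial ribosomal proteins with other symbols, all 13 mitochondrial translation factors, 24 of 25 genes of ribosome assembly and ribosomal RNA modification, 15 of 17 mitochondrial aminoacyl-tRNA synthetases and all 10 genes of mitochondrial DNA transcription and replication, the same number in each line. Rcc1l, Tars2 and Aars2 lacked it at the ends and had it at the annotated start. WDR5 lay at 3 and 2 of the 5, 3 and 2 of the 13, 8 and 3 of the 25, 5 and 4 of the 17 and 1 and 2 of the 10 in the WT rescue and the mutant rescue, beside 16.3% and 10.7% of all protein-coding genes. The 5 ribosomal proteins with other symbols had median H3K4me3 folds of 6.63 and 7.17, below the members' 11.4 and 11.9, and widths of 1985 and 1881 bp; this was not tested. A −log10 q of at least 2 was reached in the WT rescue by Dap3, a GTP-binding protein of the small subunit (fold 3.90, −log10 q 2.88), Chchd1, also of the small subunit (3.58, 2.496), and the assembly factors Malsu1 (3.46, 2.49) and Ddx28, a helicase (3.07, 2.04). In the mutant rescue it was reached by Taco1, a translational activator (2.28, 5.41), and Ears2, the glutamyl-tRNA synthetase (3.26, 2.63). Lars2, the leucyl-tRNA synthetase, reached it in both lines (3.57 and 4.37, −log10 q 49.3 and 52.6), with regions that did not lie at the annotated start. These regions were only 222 and 212 bp wide. The highest H3K4me3 folds at an end of Lars2 were 36.5 and 19.9, in regions of only 388 and 373 bp. What gave rise to such narrow regions was not tested.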

How the data were processed

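WDR5 and H3K4me3 ChIP-seq peak lists of 2 lines, 1 library each, were analysed, without the 2 input libraries, which were not used here. Per the labels' protocols, cells were crosslinked for 10 minutes (1% formaldehyde). The submitters' processing notes name MACS2 2.1.2, BWA 0.7.17-r1188, Picard and SAMtools, with the build mm10; settings and controls are not given in the sources used here. The deposited lists give, per region of 1 library, the authors' fold enrichment at the summit (a ratio) and the authors' −log10 p and −log10 q; no row has a −log10 p below 2.00. Folds were ranked and set beside all genes within a list; values of the lists stand side by side as a description and show no change between lines. Read depth is unknown, and it limits the number and width of regions.

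Regions were assigned to every gene with an end within 1 kb in the RefSeq table on GRCm38.p6; strand and start came from the RefSeq promoter table for 69 of 78 members, and 9 were matched to none. Where a member had several starts, the most upstream was used for promoters and H3K4me3 shape. A region belonged to each gene it reached, with a minimum overlap of 1 bp for regions between lists. Transfer RNA genes, 408 in number, came from the same table. Coordinates are 1-based. Shares have exact (Clopper-Pearson) 95% binomial intervals. No test was made, because every antibody and line has 1 library. The code was tested on simulated data over 21887 genes and found 194 of the 194 genes whose planted region lay within the 1 kb window. Named members were those with WDR5 at an end, without H3K4me3 at an end, with the 5 highest or lowest folds, the 3 widest regions or the 3 largest percentile ratios each way, or beside transfer RNA genes; pathway genes were named where WDR5 had a −log10 q of at least 2 or H3K4me3 was lacking. Other members are named as examples of shared promoters, of starts inside a gene or of regions at a start. Mrps11 was printed for its shared promoter. All of these were chosen after their values were seen. Members and lists were chosen with earlier results of these data known. Tools were pandas 2.3.3, numpy 2.4.6, scipy 1.17.1 and matplotlib 3.10.9 under Python 3.11.15.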

Additional observations from a re-analysis of the deposited data

How the results depend on the processing

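The H3K4me3 counts of 75, 76 and 75 members (WT rescue, mutant rescue, both lines) lay between 74 and 78 under the thresholds, list lengths and windows tried, and the median folds between 11.0 and 11.9. Leaving out the 44 members beside another gene's end leaves 34 members by construction, with H3K4me3 at 32, 32 and 32 of them and WDR5 at 8, 3 and 0. The WDR5 counts of 16, 11 and 3 depended on the threshold: a −log10 q minimum of 2 gave 1, 2 and 0, and a −log10 p minimum of 5 gave 2, 3 and 0. When both lists were shortened to equal length, the mutant rescue had 7, with a window of 0.5 kb it was 7, and with a window of 2.5 kb 6 members had WDR5 in both lines. When the regions of the lines had to overlap by 1 bp, 1 member had WDR5 in both, and with a reciprocal overlap of 50% the count was 0. Removing regions within 200 bp of transfer RNA genes left 10 members in the mutant rescue, and removing narrow regions (270 to 290 bp) whose fold was 5 or more left 15 in the WT rescue. The annotated start alone gave 13 and 9 of 69 members. No paired analysis was possible because each antibody and line has 1 library and no test was made. The depth of the libraries is unknown, so a missing WDR5 region says only that none was listed.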
